A study of Mus musculus with 8 samples.

Results

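Interleukin-1 (IL-1) family genes and genes of the NLRP3 inflammasome were followed in spleen neutrophils of mice with and without the chemokine receptor Cxcr2. The group holds 10 genes, taken as the rows whose Ensembl identifier carries one of 10 symbols in the GENCODE M21 annotation, out of 55414 genes listed in the counts. It comprises the ligands Il1a, Il1b and Il18, the receptor antagonist Il1rn, the receptor chains Il1r1 and Il1rap, the decoy receptor Il1r2, and the inflammasome genes Nlrp3, Pycard and Casp1. The rule uses no measured value. RNA was sequenced from 4 WT and 4 Cxcr2-/- mice, both on the FVB strain background and aged 10 weeks, with 1 library per mouse. The Cxcr2-/- mice lacked the receptor in every cell type, had been backcrossed to FVB, and were housed like the WT mice in specific and opportunistic pathogen-free conditions. Splenocytes were enriched with CD11b beads and sorted as CD45+ CD11b+ Ly6G+ F4/80- cells, and ribosomal RNA was depleted before strand-specific libraries were made. Expression is given as CPM, the counts on a gene per 1000000 counts on all genes, with library sizes scaled by TMM, and as mean ± SD over 4 mice. Adjusted p values come from the quasi-likelihood test of edgeR, adjusted by the Benjamini-Hochberg method over 16778 genes tested, and a gene passed at an adjusted p under 0.05.

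IL-1alpha and IL-1beta signal through a receptor made of IL-1R1 and its accessory chain, which recruits MyD88 and IRAK kinases and activates NF-kB. IL-1R2 binds the same ligands without signalling, and the antagonist IL-1Ra occupies IL-1R1 without activating it. IL-1beta and IL-18 are made as inactive precursors that caspase-1 cuts once a sensor such as NLRP3 has assembled with the adaptor ASC, the product of Pycard, and neutrophils are a known source of IL-1beta in inflamed tissue.

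Each WT library held between 34220182 and 46233555 counts on genes, and each Cxcr2-/- library between 37549648 and 43789253. Cxcr2 itself was at 1719 to 2252 CPM in WT and 12.9 to 20.7 CPM in Cxcr2-/- libraries, in accord with the labels. Neutrophil markers were abundant in every library, with the 12 genes of the list summing to 42468 to 58611 CPM in WT and 90517 to 115790 CPM in Cxcr2-/-. Of these 12 genes, 9 were higher in Cxcr2-/-, 2 were lower (Csf3r and Trem1) and 1 did not pass. Markers of other cells, 47 genes in 6 lists, summed to 1432 to 1653 CPM in WT and 1145 to 1271 CPM in Cxcr2-/-, without overlap. The largest fall in CPM among them was that of Itgax (477 to 691 CPM in WT and 107 to 157 CPM in Cxcr2-/-). Without it, a step added after the data were seen, the other 46 genes overlapped. They summed to 916 to 1098 CPM in WT and 1021 to 1129 CPM in Cxcr2-/-. Opposite changes met in that sum. Ly6c2 was at 194 to 270 CPM in WT and 573 to 663 CPM in Cxcr2-/-, and Csf1r at 403 to 499 and 190 to 269 CPM. The overlap therefore does not show that the other markers were level. These are bulk samples, so fewer cells of a type and less RNA per cell cannot be told apart. This limit holds for neutrophils of different maturity as well. Among spleen neutrophils of Cxcr2-/- mice, the paper reports a larger share of immature and a smaller share of mature cells. Mean Ltf was 8700 CPM in WT and 21059 CPM in Cxcr2-/-, Csf3r 6960 and 3334 CPM, and the protease gene Elane 1.22 and 43.8 CPM. The part of neutrophil maturity in the values of the IL-1 and inflammasome genes was not tested.

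Of the 10 genes, 7 fell in Cxcr2-/- neutrophils (Nlrp3, Il1b, Il18, Il1r2, Il1rn, Il1rap and Il1r1), 2 rose (Pycard and Casp1) and 1 did not pass (Il1a). Over all genes tested, 21% passed as lower and 23.7% as higher, 44.7% in all. All 7 lower genes fell at least 1.5-fold, where 15.7% of the genes tested did so, and 6 fell at least 2-fold, where 9.53% did so. Neither of the higher genes reached 1.5-fold. The libraries of WT and Cxcr2-/- mice did not overlap for 6 lower and 2 higher genes, while 19.1% of all genes tested were lower and 22.5% higher without overlap, together 41.6%. The median log2 fold change of the 10 genes was -1.11, against 0.01 over all genes tested. Upper-quartile scaling moved that median of all genes to -0.11 and the split of all calls from 3526 lower and 3969 higher to 4391 lower and 3076 higher, and it left 7 members lower and 0 higher.

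**Figure D1:**
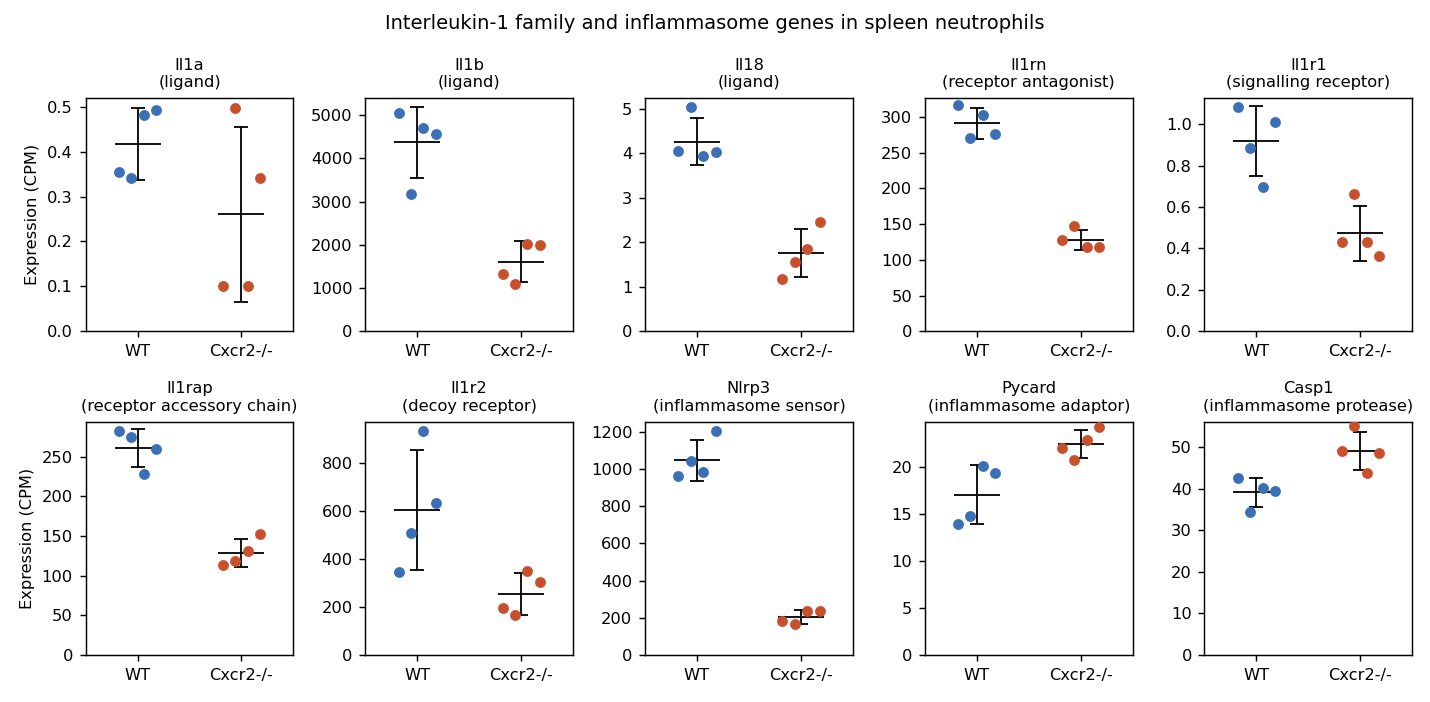
Expression in CPM (vertical axes, linear and starting at 0) of each of the 10 genes in the 4 WT (blue) and 4 Cxcr2-/- (red) libraries, in replicate order from left to right. Each point is 1 mouse, the long line is the mean and the bars are the SD; only Il1a and Il1r2 have overlapping groups, and only Pycard and Casp1 lie higher in Cxcr2-/-.

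**Figure D2:**
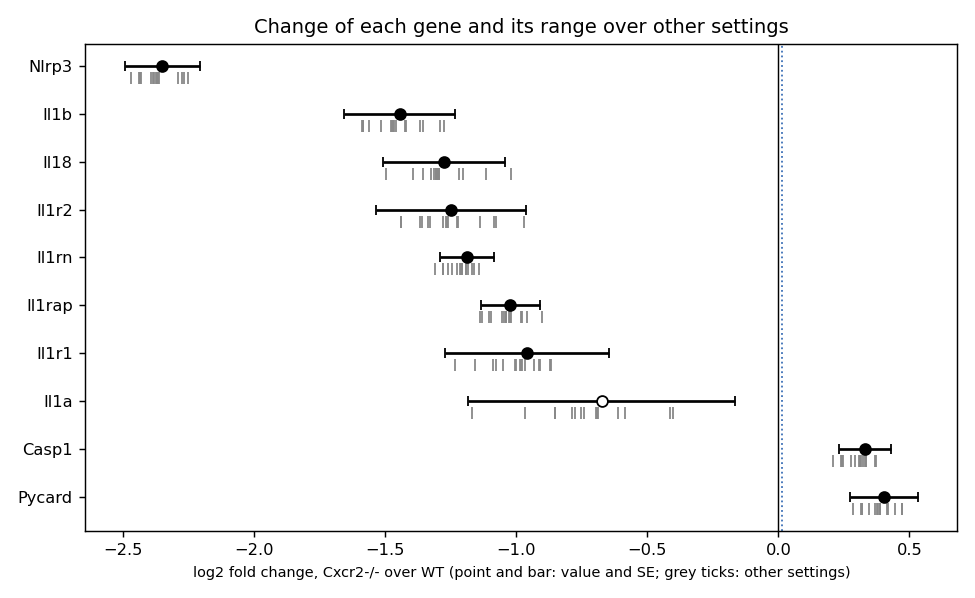
Log2 fold change of Cxcr2-/- over WT for each gene (point) with its standard error (bar), filled where the adjusted p is under 0.05. Grey ticks give the value under each other setting and with each library left out, and the dotted line is the median of all genes tested; no tick crosses 0.

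The ligands differed by several orders of magnitude in level. Il1b, listed as ENSMUSG00000027398 on chromosome 2 at 129364570 to 129371139 (GRCm38, minus strand), was at 5043, 3185, 4707 and 4561 CPM in the WT libraries and at 1319, 1083, 2029 and 1999 CPM in the Cxcr2-/- libraries. The lowest WT library stood above every Cxcr2-/- library. Il1b alone took 0.343% to 0.502% of the gene counts of a WT library and 0.104% to 0.206% of those of a Cxcr2-/- library, and by mean CPM it ranked 12 in WT and 52 in Cxcr2-/- among the genes tested. The fall was 2.72-fold (log2 fold change -1.44, SE 0.21, edgeR adjusted p = 1.46e-04). An antisense transcript that starts within the gene, Il1bos, shares 25 exon bases with Il1b and fell as well, from 35.5 ± 3.10 to 11.5 ± 3.13 CPM (log2 fold change -1.62, edgeR adjusted p = 1.05e-05). Its counts were 0.661% to 1.10% of those of Il1b in every library, and since the strand setting of the counting is not given in the sources used here, the reads of both genes may not have been separated.

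The 250 bases before the RefSeq start of Il1b are printed here because Il1b carried most of the IL-1 RNA. The window is chr2:129371140-129371389 on the minus strand of GRCm38.p6, the C57BL/6J reference, whereas the mice were FVB, so positions where FVB differs are not shown. It was searched on both strands for NF-kB (a 10-letter consensus), AP-1 (TGANTCA), CRE (TGACGTCA), C/EBP (TTGCNNAA), PU.1 (GAGGAAG), STAT (TTCNNNGAA) and TATA box (TATAAA) letters, and capitals mark the matches.
Il1b: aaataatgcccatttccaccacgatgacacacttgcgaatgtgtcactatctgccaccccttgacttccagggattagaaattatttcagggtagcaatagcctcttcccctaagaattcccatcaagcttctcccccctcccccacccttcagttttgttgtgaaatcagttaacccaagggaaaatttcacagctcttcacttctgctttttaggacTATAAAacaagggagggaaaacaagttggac
The one match in the Il1b window was a TATA box that begins 31 bases before the start. TATA box letters occurred in 12.4% of 32851 such windows over all genes, and a match is a description of letters rather than of binding.

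Il18, on chromosome 9 at 50554827 to 50581840, was low but well separated. Its level was 4.05, 5.04, 3.93 and 4.02 CPM in WT and 1.16, 1.55, 1.86 and 2.45 CPM in Cxcr2-/- libraries. Every WT library lay above every Cxcr2-/- library (log2 fold change -1.28, SE 0.23, edgeR adjusted p = 7.18e-04). Macrophages are another known source of Il18, and of the 10 monocyte and macrophage markers 2 were lower (Adgre1 and Csf1r), 3 higher (Ly6c2, Mertk and Fcgr1) and 5 did not pass. Adgre1 encodes the F4/80 antigen that the sort excluded, and it was at 26.6 to 36.5 CPM in WT and 9.60 to 16.3 CPM in Cxcr2-/- libraries. The whole list summed to 698 to 812 CPM in WT and 839 to 936 CPM in Cxcr2-/-. Most of that rise lay in Ly6c2, with means of 239 CPM in WT and 627 CPM in Cxcr2-/-. Csf1r, the other abundant gene of the list, went from 442 to 232 CPM, so the sum does not stand for the list. None of its genes was at 0 in all libraries of a group, and the part of the list in the Il18 values was not tested by itself. In the fit with the mean log2 CPM of all non-neutrophil lists as a covariate, which does not measure the macrophage share alone, the log2 fold change of Il18 was -1.02 (edgeR adjusted p = 0.00381).

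Il1a, which lies next to Il1b on chromosome 2 at 129299610 to 129309972, was near the limit of detection. It had 16, 17, 18 and 17 counts in the WT libraries and 4, 18, 4 and 14 counts in the Cxcr2-/- libraries. Cxcr2-/- replicates 2 and 4 lay in or near the WT range and replicates 1 and 3 well below it. The difference did not pass (log2 fold change -0.67, SE 0.51, edgeR adjusted p = 0.308), and at 4 to 18 counts a change of this size was not detectable. The opposite-strand gene Gm14023 overlaps 222 exon bases of Il1a, with the same limit on separating their reads.

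Il1rn encodes the receptor antagonist and lies on chromosome 2 at 24336853 to 24351494. It was at 316.7, 270.2, 302.5 and 275.7 CPM in WT and at 128, 147, 118 and 118 CPM in Cxcr2-/- libraries. The libraries within each genotype were close to each other, with a wide gap between the genotypes. The fall from 291 ± 22.0 to 128 ± 13.9 CPM had the second-smallest adjusted p of the group (log2 fold change -1.19, SE 0.10, edgeR adjusted p = 2.31e-06).

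The decoy receptor was by far the most abundant IL-1 binding chain. Il1r2, on chromosome 1 at 40074079 to 40125231, was at 343, 505, 932 and 631 CPM in WT and at 196, 166, 348 and 305 CPM in Cxcr2-/- libraries. Both genotypes spread widely, and the highest Cxcr2-/- library lay just above the lowest WT library. The mean fell from 603 ± 249 to 254 ± 86.7 CPM (log2 fold change -1.25, SE 0.29, edgeR adjusted p = 0.00356).

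Il1rap encodes the accessory chain that IL-1R1 shares with the receptors for IL-33 and IL-36, and lies on chromosome 16 at 26581704 to 26730117. It was at 282, 275, 228 and 260 CPM in WT and at 113, 119, 131 and 152 CPM in Cxcr2-/- libraries. Each WT library stood above all Cxcr2-/- libraries (log2 fold change -1.02, SE 0.11, edgeR adjusted p = 1.69e-05). An antisense transcript of low level, Gm20319, shares 552 exon bases with it and was lower too (log2 fold change -1.78, edgeR adjusted p = 2.01e-04), with the same limit.

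Il1r1, the signalling receptor, on chromosome 1 at 40225080 to 40317257, was rare in these cells. It had 49, 44, 26 and 35 counts in WT and 17, 24, 17 and 15 counts in Cxcr2-/- libraries. In CPM this was 1.08, 0.884, 0.695 and 1.01 in WT and 0.430, 0.664, 0.432 and 0.365 in Cxcr2-/-. The groups came close without overlapping, and the fall passed narrowly (log2 fold change -0.96, SE 0.31, edgeR adjusted p = 0.0246). It did not pass in 5 of 8 fits with 1 library left out (WT replicates 1 and 4 and Cxcr2-/- replicates 1, 3 and 4), where the edgeR adjusted p was 0.0563 to 0.0644.

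Il1r2 and Il1r1 open a cluster of receptor genes on chromosome 1 that continues with Il1rl2, Il1rl1, Il18r1 and Il18rap, and they lie 34.1 and 33.9 Mb from Cxcr2 on the same chromosome. The genes of the cluster did not move together. Il1rl2, the IL-36 receptor, rose from 1.42 ± 0.287 to 3.60 ± 0.536 CPM (log2 fold change 1.35, SE 0.21, edgeR adjusted p = 2.60e-04). Il18r1, the ligand-binding chain of the IL-18 receptor, rose from 33.1 ± 2.65 to 52.4 ± 9.23 CPM (log2 fold change 0.66, SE 0.12, edgeR adjusted p = 8.35e-04). Il1rl1, the IL-33 receptor, and Il18rap, the IL-18 receptor accessory chain, did not pass (log2 fold change 0.09 and -0.17, edgeR adjusted p = 0.665 and 0.263).

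Within the Il1r2 gene lies a transcript that was counted more often than Il1r2 itself. Gm37347, annotated on the same strand in a stretch of 3071 bases inside an intron of Il1r2 (chromosome 1, 40088511 to 40091581), was at 840, 1225, 2576 and 1854 CPM in WT and at 383, 326, 656 and 647 CPM in Cxcr2-/- libraries. These values rose and fell with Il1r2 from library to library, with WT replicate 3 highest for both, but here the genotypes did not overlap. Gm37347 fell more than Il1r2 did (log2 fold change -1.69, SE 0.32, edgeR adjusted p = 9.49e-04), and there were 2.42 to 2.94 Gm37347 counts per Il1r2 count in WT and 1.89 to 2.12 in Cxcr2-/-. Units that fell on no gene also took a mostly larger share in WT (31.4% to 41.5%) than in Cxcr2-/- libraries (26.7% to 31.9%). Whether that share bears on the counts of Gm37347 per Il1r2 count was not tested. The difference between both fold changes was not tested, and reads of unspliced Il1r2 RNA from that stretch cannot be told apart from a separate transcript. Gm16894, an antisense gene inside Il1r2 that shares no exon base with it, fell as well (log2 fold change -1.48, SE 0.25, edgeR adjusted p = 3.86e-04). These transcripts were chosen for their position after their values were seen.

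**Figure D3:**
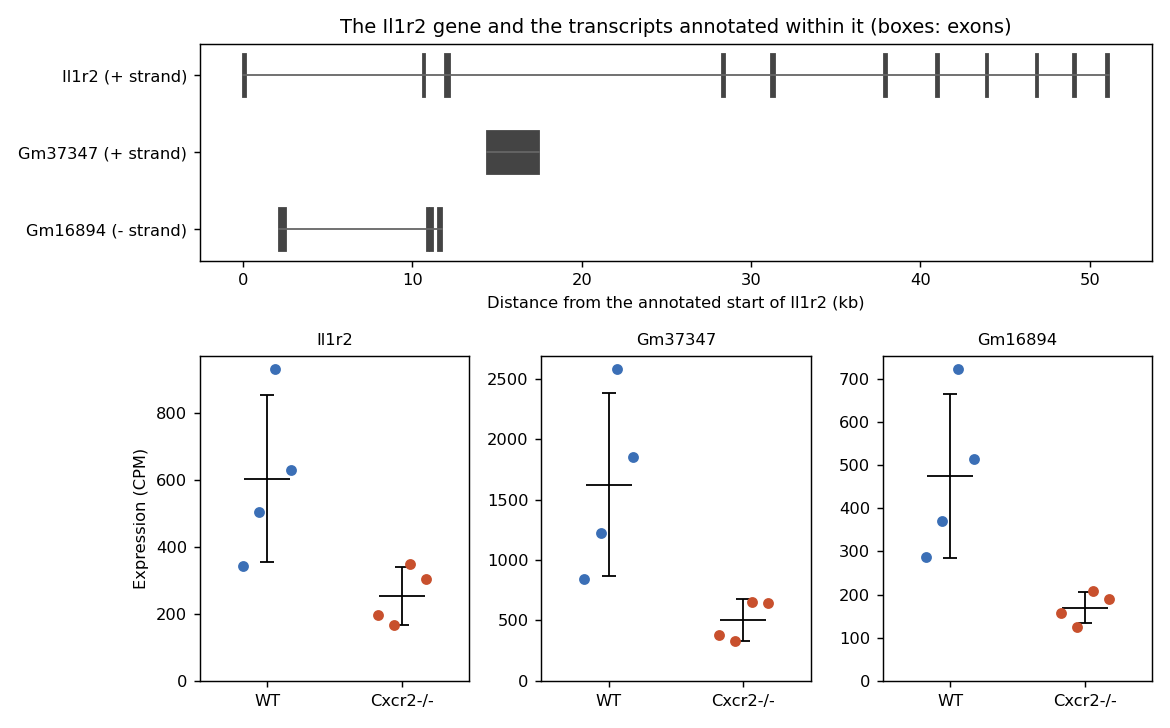
The exons (boxes) of Il1r2 and of the 2 genes annotated inside it, by distance in kb from the annotated start of Il1r2 (upper panel), and the CPM of each in 4 WT (blue) and 4 Cxcr2-/- (red) libraries with mean and SD (lower panels, linear axes from 0). WT replicate 3 is the highest library for all of them, and the groups overlap only for Il1r2.

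Nlrp3, the inflammasome sensor, changed most of the 10 genes. It lies on chromosome 11 at 59541568 to 59566956 and was at 963, 1041, 982 and 1203 CPM in WT and at 182, 165, 238 and 237 CPM in Cxcr2-/- libraries. The lowest WT library was several times above the highest Cxcr2-/- library. The mean fell 5.10-fold, from 1047 ± 109 to 205 ± 37.5 CPM (log2 fold change -2.35, SE 0.14, edgeR adjusted p = 1.78e-07). Nlrp3 ranked 104 by mean CPM in WT and 914 in Cxcr2-/-.

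The downstream components went the other way by a small amount. Pycard, on chromosome 7 at 127989708 to 127993867, encodes the adaptor ASC and was at 14.0, 14.8, 20.0 and 19.4 CPM in WT and at 22.0, 20.8, 22.8 and 24.3 CPM in Cxcr2-/- libraries. The WT libraries fell into a lower and a higher pair, and all lay below the Cxcr2-/- libraries (log2 fold change 0.40, SE 0.13, edgeR adjusted p = 0.0235). Casp1, on chromosome 9 at 5298517 to 5307265, encodes caspase-1, and was at 42.6, 34.3, 40.3 and 39.5 CPM in WT and at 49.1, 55.2, 43.9 and 48.7 CPM in Cxcr2-/- libraries. The highest WT library lay just under the lowest Cxcr2-/- library (log2 fold change 0.33, SE 0.10, edgeR adjusted p = 0.0166). Neither rise passed with upper-quartile or total-count scaling or with the covariate for non-neutrophil markers, where the log2 fold change was 0.28 to 0.38 for Pycard and 0.21 to 0.24 for Casp1. Pycard did not pass either without WT replicate 1 or 2 or without Cxcr2-/- replicate 3 or 4 (edgeR adjusted p = 0.0541 to 0.0807), nor Casp1 without replicate 2 of WT or of Cxcr2-/- (0.0776 and 0.0505). Gm45205, on the opposite strand, overlaps 485 exon bases of Pycard, and their reads may not have been separated either.

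The upstream windows of Nlrp3 and Casp1 are printed side by side because the sensor fell most and the protease rose. Nlrp3 has 2 RefSeq starts, at the ends of chr11:59541319-59541568 and chr11:59542436-59542685 on the plus strand, and the Casp1 window is chr9:5298267-5298516 on the plus strand. Capitals mark matches to the motifs given above.
Nlrp3 start 1: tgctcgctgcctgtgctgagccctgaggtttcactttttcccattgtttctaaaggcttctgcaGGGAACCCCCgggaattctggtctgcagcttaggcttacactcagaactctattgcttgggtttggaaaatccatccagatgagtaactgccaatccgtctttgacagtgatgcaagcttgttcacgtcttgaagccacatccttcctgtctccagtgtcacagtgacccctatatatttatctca
Nlrp3 start 2: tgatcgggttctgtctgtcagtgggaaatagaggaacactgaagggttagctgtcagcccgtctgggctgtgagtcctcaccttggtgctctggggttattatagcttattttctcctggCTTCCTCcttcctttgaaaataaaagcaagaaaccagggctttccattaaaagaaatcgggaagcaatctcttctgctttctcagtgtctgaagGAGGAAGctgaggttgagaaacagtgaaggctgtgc
Casp1: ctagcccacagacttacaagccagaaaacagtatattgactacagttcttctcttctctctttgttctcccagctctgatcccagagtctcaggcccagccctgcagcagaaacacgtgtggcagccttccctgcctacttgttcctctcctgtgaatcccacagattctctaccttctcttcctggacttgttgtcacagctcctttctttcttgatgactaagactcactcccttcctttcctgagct
The first Nlrp3 window held NF-kB letters from 186 bases before the start, as did 3.9% of all windows. The second held PU.1 letters from 130 and from 36 bases before the start, where 10.6% of all windows held at least 1 such match. The Casp1 window held none of the letters searched, and neither did that of Il1rap. PU.1 letters were also found before Il1a and Pycard, and NF-kB letters before one of the Il1r1 starts. PU.1 letters thus occurred before a gene that fell, a gene that did not pass and a gene that rose.

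Levels of different genes were compared as mean CPM per kb of annotated exon. The length was the union of the exons of all annotated transcripts of a gene, 3800 bases for Pycard and 11360 for Il1rap. Such a union can exceed the length of any single transcript, which lowers the value per kb. On this scale the order in WT was Il1b (2294), Il1r2 (316), Nlrp3 (258), Il1rn (52.6), Casp1 (26.2), Il1rap (23.0), Pycard (4.48), Il18 (4.13), Il1a (0.211) and Il1r1 (0.144). Neighbours whose libraries overlapped in this order were Il1r2 and Nlrp3, Casp1 and Il1rap, and Pycard and Il18. In Cxcr2-/- neutrophils the order was Il1b (843), Il1r2 (133), Nlrp3 (50.6), Casp1 (32.9), Il1rn (23.1), Il1rap (11.3), Pycard (5.91), Il18 (1.70), Il1a (0.132) and Il1r1 (0.0743), and only Il1a and Il1r1 overlapped. Casp1 and Il1rn thus changed places between the genotypes on this scale only. In CPM without division by length, mean Il1rn stayed above Casp1 in WT (291 and 39.2) and in Cxcr2-/- (128 and 49.2). Without that division, Il1rap (261) also stood above Casp1 in WT, and Pycard (17.0) above Il18 (4.26). The accessory chain and decoy exceeded Il1r1 by a wide margin in both genotypes.

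Ratios within a library do not depend on how libraries are scaled. The Il1r2 to Il1r1 ratio per kb, decoy to signalling receptor, was 1056, 1907, 4474 and 2078 in WT and 1519, 834, 2685 and 2792 in Cxcr2-/- libraries. The Il1rn to Il1b ratio, antagonist to agonist, was 0.0216, 0.0292, 0.0221 and 0.0208 in WT and 0.0335, 0.0469, 0.0200 and 0.0203 in Cxcr2-/- libraries. For both ratios the genotypes overlapped, and Cxcr2-/- replicates 1 and 2 parted from replicates 3 and 4. The difference in log2 ratio, Cxcr2-/- minus WT, was -0.24 for Il1r2 to Il1r1 and 0.28 for Il1rn to Il1b (exact permutation tests, two-sided, p = 0.743 and 0.457, n = 4 per group, where 0.0286 is the smallest p possible). For Il1b to Il1a it was -0.46 (exact permutation test, two-sided, p = 0.600), a value that rests on few Il1a counts. Over the 3 ratios the Benjamini-Hochberg adjusted p was 0.743 for each. The SD of the log2 ratio in WT and Cxcr2-/- was 0.85 and 0.82 for Il1r2 to Il1r1, 0.22 and 0.60 for Il1rn to Il1b, and 0.30 and 1.41 for Il1b to Il1a. For Il1r2 to Il1r1 the spread within both genotypes exceeded the difference, and for the other ratios that within Cxcr2-/- did.

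**Figure D4:**
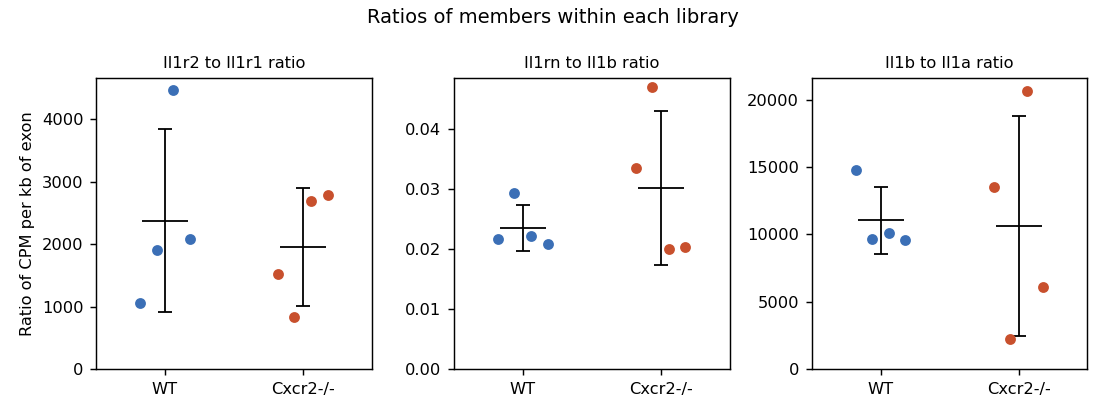
Ratios of CPM per kb of exon within each library (vertical axes, linear from 0) for 4 WT (blue) and 4 Cxcr2-/- (red) mice, with mean and SD. The genotypes overlap in each panel, and for Il1rn to Il1b the Cxcr2-/- libraries run from 0.0200 to 0.0469.

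The Cxcr2-/- libraries also differed among themselves. Replicates 3 and 4 were above replicates 1 and 2 for Il1b, Il18, Il1rap, Il1r2, Nlrp3 and Pycard, but not for Il1rn, Il1a, Il1r1 or Casp1. The 8 B cell markers, of which 7 were lower in Cxcr2-/- and none was at 0 in all libraries of a group, summed to 38.6 to 90.9 CPM in WT and to 19.4, 16.7, 32.2 and 42.1 CPM in Cxcr2-/- libraries. A list of 12 immediate early genes, transcribed within minutes of a stimulus or of handling and added after the data were seen, summed to 11182 to 12465 CPM in WT and to 2239, 1627, 3413 and 3073 CPM in Cxcr2-/- libraries. Replicates 3 and 4 were highest in both lists. In the immediate early list 11 of 12 genes fell and 1 did not pass, with a median log2 fold change of -2.35. The part of either list in the values of Il1b or Nlrp3 was not tested. In the fit with the mean log2 CPM of all non-neutrophil lists as a covariate, which holds no immediate early genes, the log2 fold change was -1.27 for Il1b and -2.27 for Nlrp3 (edgeR adjusted p = 4.49e-04 and 3.75e-07).

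The counts of the lists from here on stand beside 21% lower and 23.7% higher over all genes tested. Among the other IL-1 family ligands and soluble antagonists, 7 genes, 3 were tested, of which 1 fell. Il36rn, the IL-36 receptor antagonist, was low, at 0.309 to 0.583 CPM in WT and 0 to 0.221 CPM in Cxcr2-/- (log2 fold change -2.30, SE 0.64, edgeR adjusted p = 0.0108). Il18bp, the soluble IL-18 binding protein, was at 46.2 ± 3.45 and 46.0 ± 7.51 CPM (log2 fold change -0.01, SE 0.11, edgeR adjusted p = 0.976). Il36g, an IL-36 agonist named after its values were seen, was abundant at 242 ± 28.8 and 246 ± 28.3 CPM (log2 fold change 0.02, SE 0.11, edgeR adjusted p = 0.882). Its libraries overlapped in full, in contrast to those of Il1b and Il18.

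Of the 7 other receptors of the family 5 were tested and 2 rose, Il1rl2 and Il18r1, given above, with a median log2 fold change of 0.46 over the list. Sigirr, an inhibitory receptor of IL-1 signalling, was at 1.64 ± 0.318 and 2.26 ± 0.292 CPM and did not pass (log2 fold change 0.46, SE 0.22, edgeR adjusted p = 0.108).

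Signalling genes downstream of IL-1R1, from Myd88 to the NF-kB subunits, were spread around 0. Of 20 tested, 5 fell, 5 rose and 10 did not pass, with a median log2 fold change of -0.03. Peli1, a ubiquitin ligase acting with IRAK kinases, fell most, from 193 ± 3.49 to 88.9 ± 4.51 CPM (log2 fold change -1.12, SE 0.08, edgeR adjusted p = 6.35e-07). Map3k7, the kinase TAK1, rose most, from 32.6 ± 1.85 to 50.0 ± 5.88 CPM (log2 fold change 0.61, SE 0.10, edgeR adjusted p = 3.16e-04). For both genes the genotypes did not overlap. Irak3, an inhibitory member of the IRAK family, was at 88.2 ± 8.24 and 84.7 ± 4.90 CPM (log2 fold change -0.06, edgeR adjusted p = 0.636). The counts of this list were the least stable, with 3 to 7 lower and 1 to 5 higher over the other settings.

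Other inflammasome sensors leaned lower: of 14 tested, 7 fell, 2 rose and 5 did not pass, with a median log2 fold change of -0.53. Nlrp1b, a sensor of microbial protease activity, fell most, from 184 ± 14.0 to 52.8 ± 3.81 CPM (log2 fold change -1.80, SE 0.09, edgeR adjusted p = 7.77e-08), although reads shared with the near copy Nlrp1a make the split between the paralogs uncertain. Nlrp12, a sensor expressed in neutrophils, fell from 495 ± 26.7 to 289 ± 21.3 CPM (log2 fold change -0.77, SE 0.09, edgeR adjusted p = 3.42e-05). Both were lower in each Cxcr2-/- library than in any WT library. Naip6, a sensor of flagellin with close copies, rose from 7.62 ± 1.97 to 11.8 ± 0.648 CPM (log2 fold change 0.63, SE 0.17, edgeR adjusted p = 0.0102). Nlrc4, which NAIP proteins activate, was at 2.72 ± 0.800 and 3.86 ± 1.67 CPM with overlap (log2 fold change 0.50, SE 0.31, edgeR adjusted p = 0.210).

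**Figure D5:**
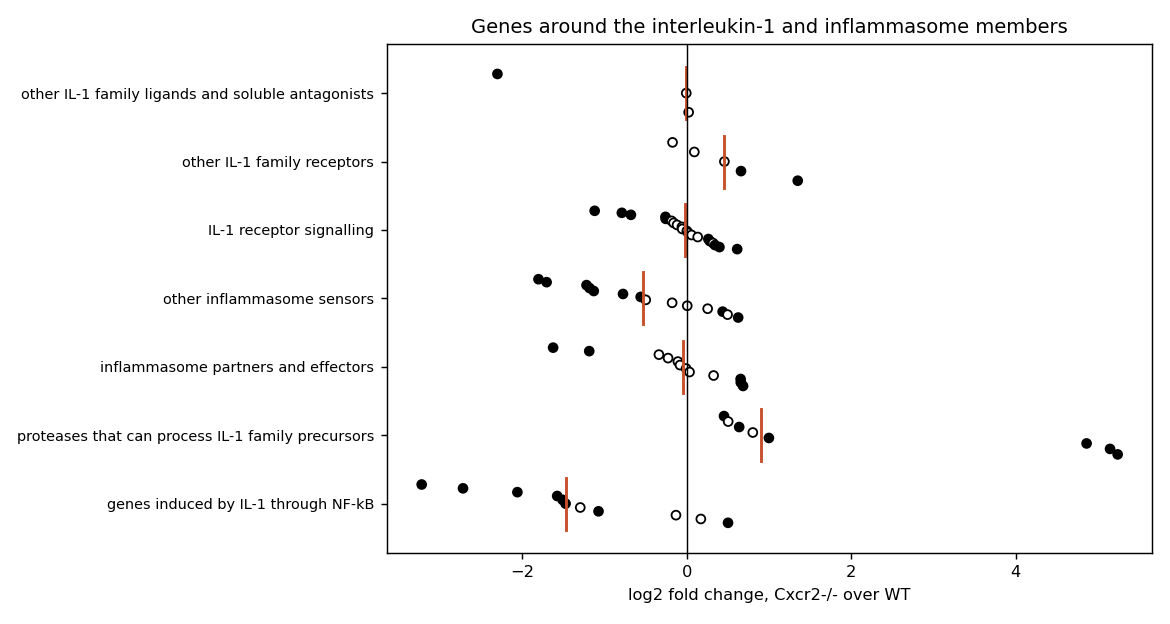
Log2 fold change of Cxcr2-/- over WT for each tested gene of the 7 lists around the IL-1 and inflammasome genes (points, filled where the adjusted p is under 0.05) with the median of each list (red line). The signalling list is centred near 0, the processing proteases lie above 0 and most genes induced by IL-1 lie below 0.

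Among 12 partners and effectors of inflammasomes, 2 fell, 3 rose and 7 did not pass, with a median log2 fold change of -0.04. These counts are near the shares over all genes tested, 21% lower and 23.7% higher. Ninj1, which ruptures the plasma membrane at the end of lytic cell death, fell most, from 151 ± 16.5 to 49.1 ± 9.12 CPM (log2 fold change -1.62, SE 0.14, edgeR adjusted p = 2.11e-06). Casp8 rose most, from 22.2 ± 2.31 to 35.7 ± 1.14 CPM (log2 fold change 0.69, SE 0.10, edgeR adjusted p = 1.10e-04). Casp4, the intracellular lipopolysaccharide sensor caspase-11, rose from 54.0 ± 5.41 to 85.0 ± 3.83 CPM (log2 fold change 0.66, SE 0.09, edgeR adjusted p = 9.58e-05). None of these overlapped between the genotypes. Gsdmd, the pore-forming substrate of caspase-1 and caspase-11, was at 140 ± 11.1 and 120 ± 16.2 CPM with overlap (log2 fold change -0.23, SE 0.11, edgeR adjusted p = 0.109).

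Proteases that can process IL-1 family precursors outside the inflammasome were higher or did not pass: of 8 tested, 6 rose and 0 fell, with a median log2 fold change of 0.90. Ctsg, cathepsin G of primary granules, rose most, from 0.0442 to 0.588 CPM over the WT libraries to 1.87, 2.49, 7.55 and 20.0 CPM in the Cxcr2-/- libraries (log2 fold change 5.24, SE 0.86, edgeR adjusted p = 3.28e-04). Cxcr2-/- replicates 3 and 4 were again the highest.

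Of 12 genes that IL-1 induces through NF-kB, 11 were tested, 7 fell, 1 rose and 3 did not pass, with a median log2 fold change of -1.47. Ptgs2, the inducible cyclooxygenase, fell most, from 741 ± 124 to 79.3 ± 45.2 CPM (log2 fold change -3.22, SE 0.35, edgeR adjusted p = 1.42e-05). Tnf, another cytokine of early inflammation, rose from 34.6 ± 5.30 to 49.1 ± 7.28 CPM with 1 Cxcr2-/- library inside the WT range (log2 fold change 0.50, SE 0.13, edgeR adjusted p = 0.00831). Several genes of this list also respond to other stimuli, and the immediate early genes given above fell in the same libraries.

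The genes whose profile over the 8 libraries was nearest to that of Il1b, by the root mean square difference of centred log2 CPM among 7501 genes, were Srgn (0.178), Ugt1a6b (0.192), Kctd7 (0.192), Trem1 (0.205) and Ninj1 (0.208). Srgn encodes the granule proteoglycan serglycin and Trem1 an activating receptor of myeloid cells, and reads of Ugt1a6b are shared with near-identical Ugt1a copies. Mean expression fell from 1177 to 486 CPM for Srgn and from 1214 to 388 CPM for Trem1. Among the members of the IL-1 group, Il1rap was at place 220, Il1rn at 347, Il1r2 at 395 and Nlrp3 at 695, while Casp1 and Pycard were at 4951 and 5181. These places share 8 libraries and their depth, and are given as a description.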

How the data were processed

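Spleen neutrophils of 4 mice per genotype were sequenced, 1 library per mouse, and groups and replicate numbers were taken from the sample labels. The authors trimmed the read pairs, mapped them with STAR on mm10 and ran HTSeq on the alignments, and they deposited whole-number counts per Ensembl gene without normalization. The processing notes of the submitters name FastQC and HTSeq without a version, and the strand setting and annotation release of the counting are not given in the sources used here. Of 55414 identifiers 52081 had a GENCODE M21 entry, 35 with the same version and none of these a member, so exon lengths and coordinates may differ slightly from the models counted. Units that fell on no gene (31.4% to 41.5% of the WT and 26.7% to 31.9% of the Cxcr2-/- units counted) stayed out of library sizes and tests. So did units that were ambiguous (2.58% to 3.12% over all libraries) or not uniquely aligned (8.23% to 13.3%).

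Counts were tested in R 4.3.3 with edgeR 4.0.16 (quasi-likelihood test, TMM, filterByExpr, Benjamini-Hochberg over 16778 genes, genotype as the one term), after the steps had been tested on simulated data. No 2 libraries of a group agreed within sampling noise (chi-square per gene 21.6 to 88.5). At 34220182 counts or more per library, counting error was appreciable for Il1a and Il1r1, which had the fewest counts. Ratios were compared by exact permutation. The 10 genes and the gene lists were chosen with earlier results of these data known. Named from the lists were the genes that fell and rose most among those that passed, Irak3, Sigirr, Il18bp, Nlrc4, Nlrp12, Casp4 and Gsdmd, and the 5 genes nearest to Il1b in profile with a mean log2 CPM of 3 or more. The immediate early list, the transcripts inside Il1r2, Il36g and the promoter motifs were added after the data were seen. Promoter windows are RefSeq sequences of GRCm38.p6 (all 10 genes matched). Alternatives were RLE, upper-quartile and total-count scaling, no filter, a minimum of 10 counts per library, DESeq2 1.42.0, a block for the replicate number, the non-neutrophil markers as a covariate, ratios without division by length, and each library left out in turn.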

Additional observations from a re-analysis of the deposited data

Results flagged for a closer look

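Of 26 groups of 4 libraries examined, 3 held a library that stood apart from the other 3 by Dixon's criterion at the 95% level, where chance gives about 1 in 20. Il18 was highest at 5.04 CPM in WT replicate 2, and the macrophage genes C1qa, C1qb and C1qc were highest in the same library, at 5.79, 6.39 and 5.04 CPM. The part of macrophage RNA in this Il18 value was not tested. The Il1rn to Il1b ratio was highest at 0.0292 in the same mouse, WT replicate 2. The Il1b to Il1a ratio was highest at 14760 in WT replicate 1, on 16 Il1a counts.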

How the results depend on the processing

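The 7 lower genes kept their direction in all 16 other fits, and all but Il1r1 passed in each. Il1a had no value where every library needed 10 counts. Il1r1 did not pass with the replicate number as a block (log2 fold change -0.96, edgeR adjusted p = 0.0501), and its log2 fold change was -1.16 to -0.87 with 1 library left out. Under upper-quartile scaling, total-count scaling and the non-neutrophil covariate 0 members passed as higher, with log2 fold changes of 0.28, 0.31 and 0.38 for Pycard (edgeR adjusted p = 0.0994, 0.0897 and 0.0668) and of 0.21, 0.24 and 0.24 for Casp1 (0.102, 0.053 and 0.12). With 1 library left out, 0 to 2 members passed as higher, and the log2 fold change was 0.32 to 0.47 for Pycard and 0.25 to 0.37 for Casp1. Of the signalling list, 3 genes passed as lower with no filter, with the replicate block and with the covariate. As higher, 3 of them passed with RLE and with DESeq2, 2 with total-count scaling and with no filter, and 1 with upper-quartile scaling and with the covariate, while leaving out 1 library gave 3 to 5 in each direction (3 lower without WT replicate 1 or 4 or Cxcr2-/- replicate 1 or 2, and 3 higher without WT replicate 1, 2 or 3 or Cxcr2-/- replicate 1 or 2). Of the other receptors 1 passed as lower with total-count scaling and with the covariate. Of the other ligands 0 passed as lower where every library needed 10 counts, and of the genes induced by IL-1 0 passed as higher with the covariate. The Il1r2 to Il1r1 difference ran from -0.57 to 0.12 and the Il1b to Il1a difference from -0.93 to 0.14 with 1 library left out, changing sign without WT replicate 3 or Cxcr2-/- replicate 2 for the first and without Cxcr2-/- replicate 2 for the second. The cause of these changes was not tested. Replicate numbers name different mice, and same-numbered libraries deviated together with correlations of -0.26 to 0.16, so the numbers were not taken as pairs. Depth limits what can be said of Il1a and Il1r1, which had at most 49 counts in a library.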
